A study of Mus musculus with 6 samples.

Results

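Phox2a, Hand1, Hand2, Gata2, Gata3 and Isl1 are transcription factors that act in the sympathoadrenal lineage, the neural crest cells that become sympathetic neurons and the chromaffin cells of the adrenal medulla. They were described here in adrenal glands of mice. Members were all probe sets whose single annotated gene symbol was one of these 6 names, which gave 8 probe sets for the 6 genes, among 12422 probe sets that are not controls and 8251 genes with a probe set of a single symbol. Hand1 and Gata2 had 2 probe sets each, and the other genes had 1.

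Total RNA of whole adrenal glands was hybridised to Affymetrix mouse arrays. BPL is the hypotensive and BPH the hypertensive of a pair of inbred lines selected for low and high blood pressure. The animals were male, 12 weeks old and, as far as the labels say, untreated, with 3 arrays per strain. The labels do not say whether each array held the RNA of a single animal, and p-values therefore refer to the spread among these arrays, which may be in part technical.

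The lineage is specified by a network in which these factors act on one another. Phox2a is a homeodomain protein that binds the promoters of catecholamine enzyme genes. Hand1 and Hand2 are basic helix-loop-helix proteins that pair with E proteins and bind E-boxes. Gata2 and Gata3 are zinc finger proteins that bind the sequence GATA, and Isl1 is a LIM homeodomain protein. Outside the medulla, Gata2 is also known in endothelial and mast cells and Gata3 in T lymphocytes.

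To show what lies in front of the member whose signal differed between the strains, and of the member with the most motif matches, the 250 bases before the RefSeq start site of Phox2a (GRCm38.p6, chr7:101818063-101818312, plus strand) and of Hand2 (chr8:57320733-57320982, plus strand) are given 5′ to 3′. Capitals mark matches to the E-box CANNTG, to GATA or to the homeodomain core TAAT, on either strand.
Phox2a: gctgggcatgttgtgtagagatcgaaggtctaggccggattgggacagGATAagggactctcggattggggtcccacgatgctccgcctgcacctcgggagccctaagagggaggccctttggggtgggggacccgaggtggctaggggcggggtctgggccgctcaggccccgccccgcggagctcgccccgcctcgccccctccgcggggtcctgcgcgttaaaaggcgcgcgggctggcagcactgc
Hand2: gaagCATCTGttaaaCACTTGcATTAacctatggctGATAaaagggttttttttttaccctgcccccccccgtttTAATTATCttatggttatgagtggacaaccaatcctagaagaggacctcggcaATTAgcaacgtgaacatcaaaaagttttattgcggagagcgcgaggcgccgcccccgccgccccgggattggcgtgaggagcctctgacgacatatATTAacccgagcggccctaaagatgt
The Phox2a window held 1 GATA match, no E-box and no TAAT, and 70.4% of its bases were G or C. The Hand2 window held 2 E-boxes, 2 GATA matches and 5 TAAT matches, some of which overlapped one another, including 1 overlap between a GATA and a TAAT match, and 49.2% of its bases were G or C. Of 32851 RefSeq start windows of this length, 66.2% held an E-box, 53.6% a GATA match and 54.9% a TAAT match. Of the other members, Isl1 had 1 E-box, 1 GATA and 2 TAAT matches, while the window of Gata3 and both windows of Gata2 had none of the 3 motifs. No window was matched for Hand1. A match is a run of letters and was not tested for binding.

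Phox2a was the member that differed between the strains: its signal was higher in BPH on every array. The ratio of the means was 3.91, an uncertain value because the BPL signals were dim and were not shown to be above background. No probe set of the other 5 genes passed the test in either direction. In the same glands, 7 of 15 tested chromaffin cell markers were called higher in BPH, among them tyrosine hydroxylase. The whole gland was sampled, so more chromaffin cells and more RNA per cell cannot be told apart, nor can a smaller share of other tissue in the BPH samples. Of 8 tested fat markers 1 was called lower in BPH, with a median log2 difference of -0.47. Of 8 tested cortex steroid genes 1 was called higher, with a median of 0.17. Of 11 tested skeletal muscle markers, 7 were lower in BPH, with a median log2 difference of -3.98. With their mean as a covariate 0 chromaffin markers were called by limma. That covariate itself separates the strains, so the fit cannot tell strain from muscle. With it 6 probe sets in all were called, against 306 without it. Signals are MAS5 intensities scaled to a common array median, and differences are of log2(signal + 203), which makes changes of dim genes look smaller than they were. Probe sets in the lowest 40% by the mean of this value were not tested in the filtered fit. That filter left 4 member probe sets (both of Hand1 and 1 each of Gata2 and Gata3), and the others were taken from the same limma model fitted without a filter.

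**Figure D1:**
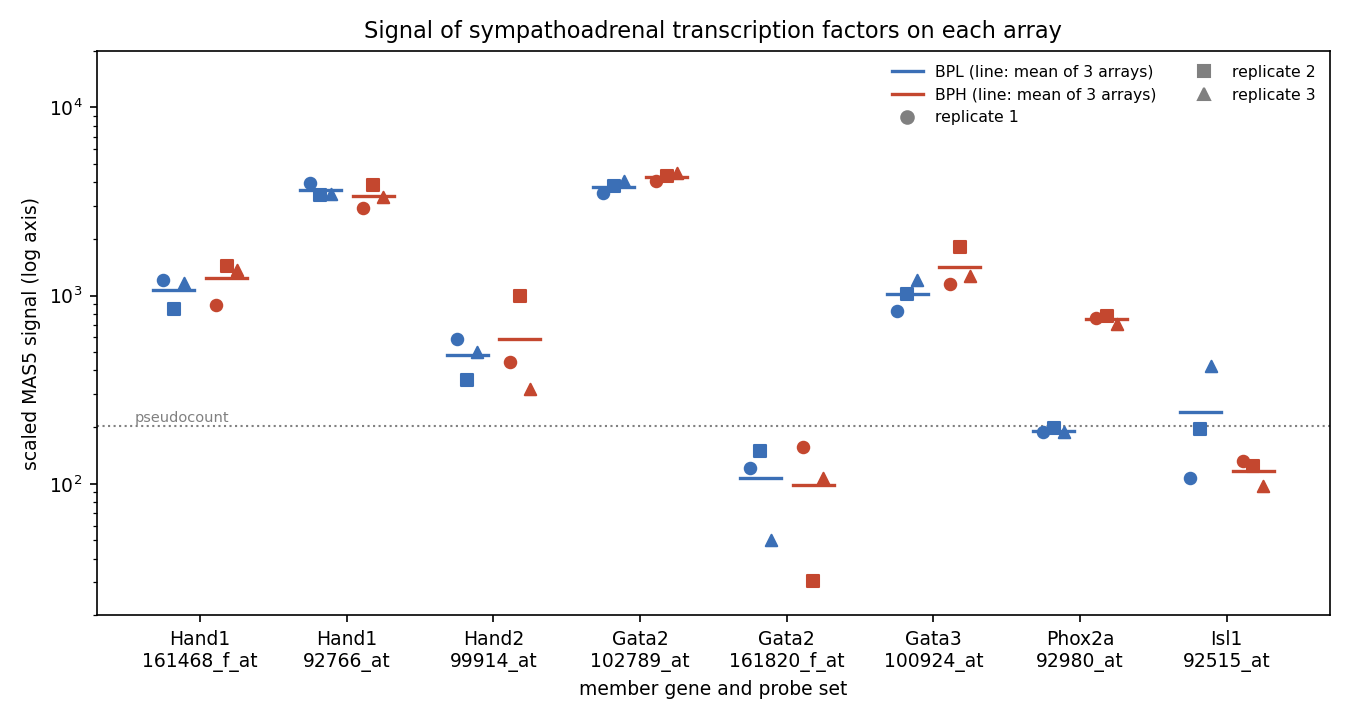
Scaled MAS5 signal (log axis) of the 8 member probe sets on each array, BPL in blue and BPH in red, with a line at the mean of 3 arrays and a dotted line at the pseudocount of 203. The BPH arrays of Phox2a lie between 704 and 776 and its BPL arrays between 187 and 198, while the strains overlap for the other 7 probe sets.

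Phox2a, which drives catecholamine enzyme genes in noradrenergic cells, gave a signal of 187 in BPL replicate 1, 198 in replicate 2 and 189 in replicate 3. In BPH replicates 1, 2 and 3 its signals were 765, 776 and 704. The groups did not overlap, and the lowest BPH signal was 3.56 times the highest BPL signal. The BPL mean was 191 ± 5.69 and the BPH mean 748 ± 39.1 (SD, n = 3), and the log2 difference was 1.27 ± 0.15 (SE, 95% interval 0.92 to 1.62, limma without a filter, adjusted p = 0.0090). Without a filter 1.02% of the 12422 probe sets passed, 0.853% being higher in BPH and 0.169% lower. All BPH arrays lay above all BPL arrays for 13.4% and below them for 7.91%. A log2 rise at least as large as that of Phox2a was found for 119 probe sets (0.958%).

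The Phox2a signal was dim in BPL. It stood above 13.7% to 20.8% of the probe sets of the same array in BPL, and above 41.4% to 44.0% in BPH. With a mean at the 32.0th percentile it fell below that filter. A probe set this dim gives an uncertain level, since no detection call was used and the BPL signals lie below the pseudocount. The replicates lay close together all the same: the coefficient of variation was 2.97% in BPL and 5.22% in BPH, against medians of 40.2% and 36.2% over 2485 probe sets within 10 percentile points of its mean. An exact permutation test (2-sided) of Phox2a gave p = 0.1, the smallest that 3 against 3 arrays allow, and 0.53 after adjustment over the 8 probe sets.

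The call of Phox2a depended on single arrays, while its size did not. The log2 difference was 1.26 without BPH replicate 1 (limma adjusted p = 0.061) and 1.25 without BPH replicate 2 (limma adjusted p = 0.057), both short of the threshold of 0.05, and it stayed called without any other single array. Tissue of other kinds varied between the arrays beside it: the mean log2 value of 11 tested skeletal muscle markers reached 13.2 in BPL replicate 1, 14.3 in replicate 2 and 11.0 in replicate 3, against 9.15 to 9.43 in BPH, and 7 of these markers were called lower. Against BPL replicate 3 alone, the BPL array with the least muscle signal, the Phox2a difference was 1.28. Its limma adjusted p of 0.22 takes the spread from the BPH arrays only and assumes that the lone BPL array varies like them. With the muscle markers as a covariate, which itself separates the strains, the Phox2a difference was 1.29 (limma adjusted p = 0.56).

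Hand1, a helix-loop-helix factor of the lineage and of heart and placenta, did not differ detectably on either probe set. The brighter one, 92766_at, had signals of 3978, 3411 and 3476 in BPL and 2907, 3892 and 3327 in BPH. BPH replicate 1 was the lowest and BPL replicate 1 the highest, and the groups overlapped, with a log2 difference of -0.10 ± 0.16 (limma adjusted p = 0.76, 95% interval -0.48 to 0.27). The dimmer probe set, 161468_f_at, whose suffix marks probes shared with related sequences, read 1212, 845 and 1166 in BPL and 891, 1441 and 1376 in BPH. Its difference was 0.16 ± 0.21 (limma adjusted p = 0.70, 95% interval -0.32 to 0.64), of the opposite sign to the first, so that Hand1 has no settled direction here.

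Hand2, the partner in the lineage that keeps noradrenergic genes expressed, had signals of 588, 356 and 504 in BPL and 442, 1000 and 319 in BPH. BPH held both the highest and the lowest of the 6 values, and its coefficient of variation was 61.9% against 24.4% in BPL. The log2 difference was 0.13 ± 0.32 (limma without a filter, adjusted p = 0.89, 95% interval -0.62 to 0.87), an interval that does not exclude a change of 0.5 in either direction. Without BPH replicate 2 it was -0.23, and without BPL replicate 2 it was -0.015.

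Gata2, the zinc finger factor shared with endothelial and blood cells, was the steadiest bright member. Probe set 102789_at read 3524, 3801 and 4062 in BPL and 4058, 4303 and 4460 in BPH. The strains touched only between BPL replicate 3 and BPH replicate 1, at 4062 and 4058. The log2 difference was 0.16 ± 0.14 (limma adjusted p = 0.55), with a 95% interval of -0.17 to 0.50. The other Gata2 probe set, 161820_f_at, was near the bottom of the arrays, from 50.3 to 150 in BPL and from 30.6 to 157 in BPH, and had a log2 difference of -0.049 ± 0.22 (limma without a filter, adjusted p = 0.94).

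Gata3, which maintains the catecholamine phenotype of chromaffin cells and is also a T cell factor, had the largest difference among the tested member probe sets. Its signals were 825, 1016 and 1209 in BPL and 1152, 1815 and 1274 in BPH. BPH replicate 2 was the highest, and BPH replicate 1 lay below BPL replicate 3. The means were 1017 ± 192 and 1414 ± 353 (SD, n = 3). The log2 difference, 0.40 ± 0.20, missed the threshold (limma adjusted p = 0.31, 95% interval -0.07 to 0.86). It was 0.23 without BPH replicate 2 and 0.17 without BPL replicates 1 and 2.

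Isl1, a LIM homeodomain factor of sympathetic precursors, was dim and uneven. Its signals were 108, 195 and 422 in BPL and 132, 124 and 97.3 in BPH. BPL replicate 3 stood above the rest, and BPL replicate 1 lay inside the BPH range. The log2 difference was -0.41 ± 0.26 (limma without a filter, adjusted p = 0.52, 95% interval -1.02 to 0.20). It was -0.14 without BPL replicate 3 and -0.96 without BPL replicates 1 and 2, so its size rested on which BPL arrays were kept.

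Of the 4 tested member probe sets 0 were called by limma and 0 had an unadjusted p under 0.05, against 4.11% of all 7453 tested probe sets called (3.18% higher, 0.926% lower) and 20.6% with an unadjusted p under 0.05. Without a filter 1 of the 8 was called, Phox2a, and the same 1 had an unadjusted p under 0.05, against 1.02% of all 12422 probe sets called and 14% with an unadjusted p under 0.05. All BPH arrays lay above all BPL arrays for 19.7% of the tested probe sets and below them for 7.97%, and for 0 of the 4 tested member probe sets. Over the tested probe sets the median difference was 0.084 on the log2 scale. Hand1, Gata2 and Gata3 had tested probe sets with intervals that include this value.

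**Figure D2:**
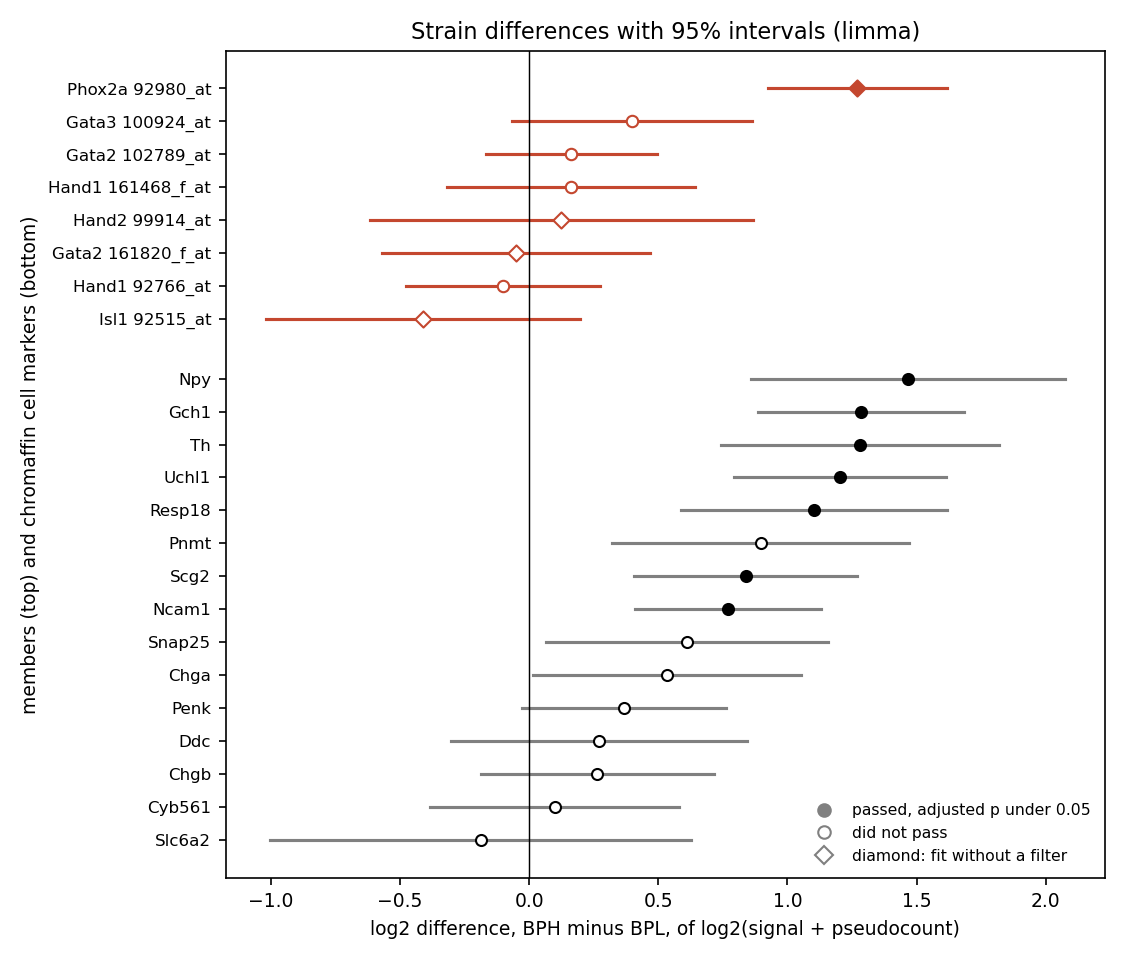
Log2 differences (BPH minus BPL) with 95% intervals from limma for the 8 member probe sets (top, red) and the 15 tested chromaffin cell markers (bottom); filled symbols passed the test and diamonds come from the fit without a filter. Phox2a at 1.27 lies beside Th at 1.28 and Gch1 at 1.28, a place that depends on the pseudocount, which is above its BPL signals. The other 7 member probe sets lie between -0.41 and 0.40 with intervals that include 0.

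The genes that these factors serve in chromaffin cells were compared next. That Phox2a stood beside some of them depends on the pseudocount of 203, which is above its BPL signals. Its difference was 0.73 with the higher pseudocount and 1.88 with a floor. Th, the enzyme that sets the pace of catecholamine synthesis and a target of Phox2a in noradrenergic cells, had signals of 12088, 14506 and 19621 in BPL and 34660, 47889 and 30381 in BPH. The groups did not overlap, and the log2 difference was 1.28 ± 0.24 (limma adjusted p = 0.023). Npy at 1.47, Gch1 at 1.28, Uchl1 at 1.204, Resp18 at 1.10, Scg2 at 0.84 and Ncam1 at 0.77 were the other called markers. Pnmt, which makes adrenaline, did not pass at 0.90 ± 0.25 (limma adjusted p = 0.097), nor did Chga, a granule protein, at 0.53 ± 0.23 (limma adjusted p = 0.23), nor Ddc, the enzyme after Th, at 0.27 ± 0.25 (limma adjusted p = 0.57). Other tested probe sets of these genes stood at 1.19 for Pnmt, 0.075 for Chga and -0.32 for Ncam1. Slc6a2 was at -0.19 (limma adjusted p = 0.80). Its second probe set, below the filter, was lower on all BPH arrays, at -0.80 (limma without a filter, adjusted p = 0.17). Of the 20 markers listed, Dbh, Slc18a1, Slc18a2 and Cartpt had no probe set of a single symbol, and Ret lay below the filter. Of the 15 tested markers 14 had positive differences. Of these markers 7 were called higher and 0 lower, with a median of 0.77, against 188 higher and 52 lower of 5664 tested genes (4.24%) and a median of 0.090. The differences were smaller against BPL replicate 3 alone: the median over the 15 markers was 0.41, 12 were positive, and Th stood at 0.91. In that comparison 0 markers were called by limma, with the spread taken from the BPH arrays only. Leaving out BPL replicate 1 or 2, or BPH replicate 1 or 2, gave 2 calls each time, and the fit without a filter also gave 2. Calls over all probe sets fell too, from 306 to 160 and 138 without BPL replicates 1 and 2 in turn. They were 128 and 112 without BPH replicates 1 and 2 in turn, and 127 without a filter.

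To set the members against the amount of medullary signal, the mean log2 value of the 15 chromaffin markers was subtracted on each array. That mean was 12.7, 12.8 and 13.2 in BPL and 13.6, 13.8 and 13.6 in BPH, a rise of 0.72 in the group means. On this relative scale Phox2a was higher in all BPH arrays, with a mean of -3.74 ± 0.12 against -4.29 ± 0.27 in BPL (SD, n = 3) and a difference of 0.55. For comparison, 1.22% of all 12422 probe sets lay higher in all BPH arrays on that scale. Its size was 0.059 with the higher pseudocount, 0.72 after quantile normalization and 0.91 against the 8 markers that were not called, so how far Phox2a exceeded the markers is not settled.

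The other members lay lower relative to the chromaffin markers, as most probe sets did. Both Hand1 probe sets, Gata2 102789_at, Gata3 and Isl1 were below in all BPH arrays, with differences of -0.56 and -0.82 for Hand1, -0.56 for Gata2, -0.32 for Gata3 and -1.13 for Isl1, and 58.7% of all probe sets were below in the same way. Hand2 and the dim Gata2 probe set overlapped. Each of the 6 probe sets whose strains did not overlap gave p = 0.1 in the 2-sided exact permutation test, the smallest possible with 3 against 3 arrays (0.13 adjusted over the 8 probe sets). Gata3 changed sign, to 0.040, against the 8 markers that were not called. A probe set that does not differ between the strains falls by 0.72 on this scale.

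**Figure D3:**
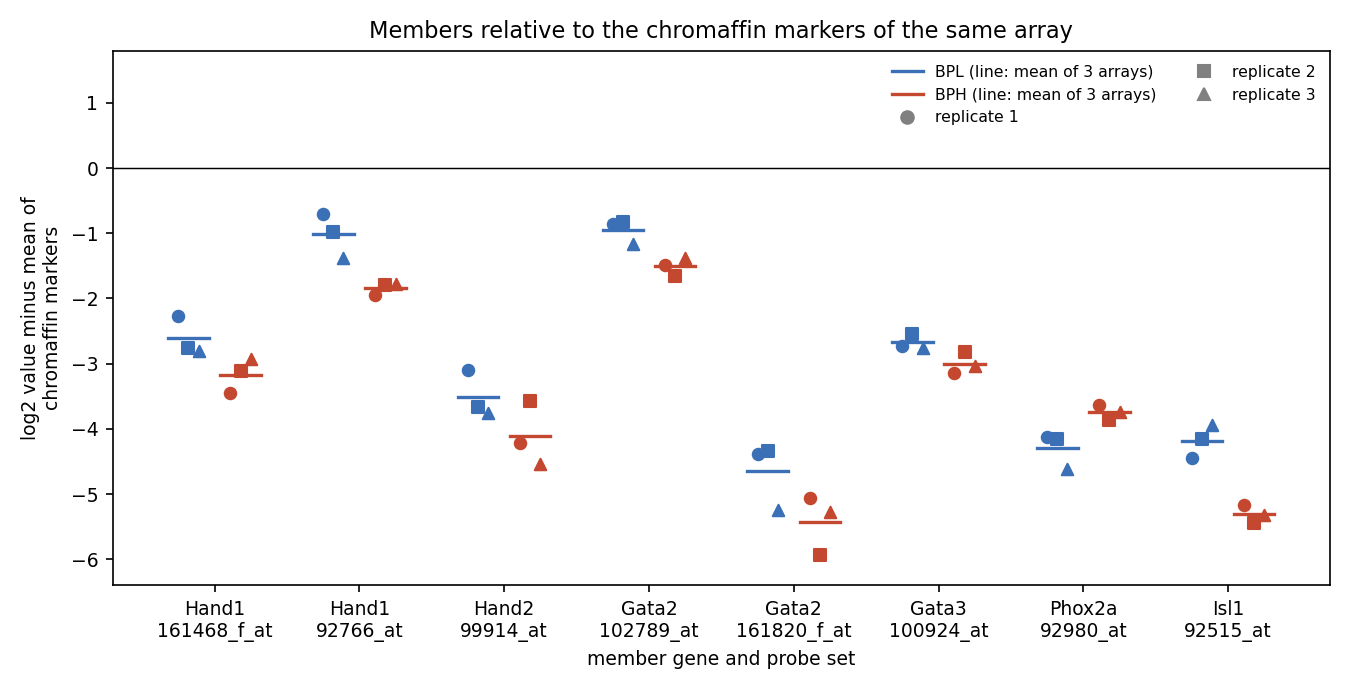
Log2 value of each member probe set minus the mean log2 value of 15 chromaffin markers on the same array, BPL in blue and BPH in red, with lines at the mean of 3 arrays. Phox2a is the member that is higher in BPH, at -3.74 against -4.29, and Isl1 shows the widest gap in the other direction, at -5.31 against -4.18.

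Other transcription factors of the lineage were read in the same way. Of 10 tested genes of that list 2 were higher and 0 lower, with a median log2 difference of 0.021. Egr1, an immediate early zinc finger factor that can act on Pnmt, rose by 3.16 ± 0.22 (limma adjusted p = 2.1e-04), and its second probe set, below the filter, stood at -0.049. Meis2, a TALE homeodomain factor, had signals of 728, 993 and 1390 in BPL and 1898, 2324 and 2210 in BPH and rose by 0.95 ± 0.21 (limma adjusted p = 0.047, and 0.11 without a filter). Calls in this lineage list numbered 1 to 2 with single arrays left out and 1 after quantile normalization.

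Proteins that bind the members were called in neither direction. Of 17 tested partners and inhibitors 0 passed limma, and 14 had positive differences, with a median of 0.24. Among all 5664 tested genes 4.24% were called and 3491 had positive differences, with a median of 0.090. The E protein Tcf12, a partner of Hand factors, had a difference of 0.29 ± 0.19 (limma adjusted p = 0.40), the Gata cofactor Zfpm1 0.15 ± 0.21 (limma adjusted p = 0.71) and the LIM-binding Ldb1 0.36 ± 0.38 (limma adjusted p = 0.62). The Id proteins, which block E proteins, read 0.39 for Id1, 0.42 for Id3 and -0.42 for Id2. The coactivator Crebbp came nearest to the threshold, at 0.55 ± 0.14 (limma adjusted p = 0.078). Of 15 tested genes of bone morphogenetic protein and neurotrophic signalling, which act upstream of the factors, 0 passed limma, 5 were positive and the median was -0.054. Bmp7 had the highest difference of these, at 0.80 ± 0.25 (limma adjusted p = 0.13).

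Relatives of the members in the same protein families gave 1 call among 10 tested genes. Scx, a helix-loop-helix factor of tendon, rose by 1.04 ± 0.23 (limma adjusted p = 0.045), and 0 genes of the list were called by limma when any single array was left out. Gata6, the family member of the adrenal cortex, had signals of 2536, 2340 and 2066 in BPL and 3954, 4027 and 3131 in BPH. Its groups did not overlap, but the log2 change, 0.63 ± 0.17, missed the threshold (limma adjusted p = 0.080), and its other probe sets stood at 0.14 and -0.062. Gata4 was at -0.23 ± 0.26 (limma adjusted p = 0.64) and Gata1 at -0.25 ± 0.28 (limma adjusted p = 0.64). Among 10 tested factors and regulators of the cortex 2 were higher, Cited2 at 1.07 ± 0.18 (limma adjusted p = 0.016) and Dlk1 at 1.063 ± 0.24 (limma adjusted p = 0.045). Calls in this cortical list numbered 0 to 2 with single arrays left out, 1 after quantile normalization and 0 by limma without a filter. Nr5a1, the master factor of steroid cells, had a difference of 0.44 ± 0.16 on its brightest probe set (limma adjusted p = 0.17), while a dimmer one was called at 1.24 ± 0.23 (limma adjusted p = 0.023).

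Markers of other cells that use the members did not pass, and their part in the member signals was not tested. Of 12 tested endothelial markers 0 were called by limma, with a median of 0.056, and their summed signal was 38386 to 51823 in BPL and 51422 to 55832 in BPH, beside the steady Gata2. Of 14 T and innate lymphoid markers 12 had a probe set of a single symbol, 3 of these were bright enough to be tested and 0 were called. The summed signal of the 12 was 4433 to 5554 in BPL and 4415 to 5723 in BPH. Cd3e, Cd3d and Cd3g all lay below the filter, with Cd3e at 302 in BPL and 252 in BPH, beside the Gata3 values. Of 7 tested mast and erythroid markers 0 were called by limma, with summed signals of 60283 to 93051 in BPL and 78119 to 99387 in BPH. These 7 were Tpsb2, Cma1, Gata1, Klf1, Alas2, Epor and Hba-a1, and the sums mix mast with erythroid genes. Other mast cell genes, such as Cpa3, Kit and Fcer1a, lay below the filter. Of 5 tested Schwann cell and sympathetic neuron markers 0 were called by limma, and the summed signal was 17758 to 19777 in BPL and 16602 to 27897 in BPH. These 5 were Mbp, S100b, Sox10, Pmp22 and Stmn2, so that Stmn2 alone stood for neurons among the tested genes.

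BPH replicate 3 stood apart in Prph, the peripherin of peripheral neurons, which read 1826 there on probe set 161482_f_at and 131 to 429 on the other 5 arrays, and 306 on 104751_at against 16.1 to 51.1. Of the neurofilament genes, Nefh (913) and Nefl (424) were also highest on that array, the latter close to BPL replicate 1 (408), while Nefm (62.1) was not. Of the 8 member probe sets, Phox2a (704), Hand2 (319) and Isl1 (97.3) had their lowest BPH signal there, Gata2 102789_at (4460) had its highest, and the other 4 lay in the middle. Without BPH replicate 3 the Phox2a difference was 1.30 (limma without a filter, adjusted p = 0.037).

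Genes with the most similar pattern over the 6 arrays were found by the root mean square difference of log2 values after centring each probe set on its own mean. For Gata3 they were Mafg at 0.044, Fkbp5 at 0.074 and Ppp4c at 0.076. For Gata2 102789_at they were Hps1, Pdxk and Dnm1l, at 0.040 to 0.043, for Hand1 92766_at Tgds, Gfra3 and Tbc1d22a, at 0.039 to 0.048, and for Hand1 161468_f_at Trp53i13, Cmtm8 and Psmg4, at 0.065 to 0.097. For Phox2a, taken over all probe sets of a single symbol and added after its values were seen, they were Rps19 at 0.067, Pxk at 0.078 and Wdr92 at 0.096. None of the 15 genes was another member, and Gfra3, a neurotrophic receptor of the upstream list, was the only one from the lists above.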

How the data were processed

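Adrenal RNA of 3 BPL and 3 BPH samples was converted to biotinylated cRNA for Affymetrix arrays, per the labels' protocols. For each probe set the authors deposited a signal intensity on a linear scale; the submitters' processing notes name MAS5, with version, settings and scaling target not given in the sources used here. The trimmed mean was 2501 to 2502 on every array, while medians ran from 945 to 1144. Arrays were therefore brought to a common median of 1040, the average of the 6. Of 12488 probe sets, 66 controls were left out. Gene names came from the platform annotation where it gives 1 symbol (10833 probe sets).

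Values were log2(signal + 203), with 203 the 20th percentile. limma (3.58.1, R 4.3.3) compared BPH with BPL over 7453 probe sets, or over all 12422 for members below the filter, with Benjamini-Hochberg adjustment and a threshold of 0.05. List counts used the brightest probe set of a gene. Relative values were tested by exact permutation. Named genes were all members, the 3 nearest probe sets in pattern for each tested member, up to 4 called genes per list, and Th, Pnmt, Ddc, Chga, Gata6 and Nr5a1; other context genes were chosen after their values were seen. The members and lists were chosen with earlier results of these data known. The model was tested on simulated data.

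Promoter windows came from RefSeq (GRCm38.p6) and matched 5 of the 6 genes; only bases before the start site were used. Other settings tried were the authors' scaling, quantile normalization, 2 other pseudocounts and a floor, 3 other filters, a robust variance with a trend, the replicate block, arrays left out and a skeletal muscle covariate. No 2 arrays shared more than 1 identical value. The number of arrays limits the precision.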

Additional observations from a re-analysis of the deposited data

How the results depend on the processing

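Hand1, Hand2, Gata2, Gata3 and Isl1 were called by limma under 0 of the settings run. Phox2a was fitted without a filter, except in the setting with the lowest 20% not tested. It stayed higher in BPH in all 16 settings, that setting included, from 0.73 (higher pseudocount) to 1.88 (floor), and kept its call in 11. It lost the call with the replicate block (1.27, limma adjusted p = 0.062, 0 members called), without BPL replicates 1 and 2 together (1.28, adjusted p = 0.22, 0 called), with the skeletal muscle covariate (1.29, adjusted p = 0.56, 0 called) and without BPH replicate 1 or 2. Over single arrays left out it ran from 1.25 to 1.30, with 0 to 1 members called. The covariate itself separates the strains. The labels share replicate numbers, but arrays of the same number deviated from their group means with correlations of -0.18 to -0.054, so the numbers were not taken as pairs.

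In the filtered fit 0 members were called, and 1, Phox2a, with no filter or with the lowest 20% not tested, a setting chosen after seeing the data. All probe sets called numbered 306, and 127 with no filter, 174 with the lowest 20% not tested, 92 without BPL replicates 1 and 2 together, 6 with the covariate and 112 to 372 with single arrays left out. Genes called in the lists numbered 21, and 13 with the floor, 4 with no filter, 7 with the lowest 20% not tested, 5 without BPL replicates 1 and 2 together, 0 by limma with the covariate and 4 to 23 with single arrays left out.

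Uncalled differences near 0 changed sign. Hand1 161468_f_at was -0.18 with the covariate. Hand2 was -0.24 with the covariate, -0.015 without BPL replicate 2 and -0.23 without BPH replicate 2, in a range of -0.23 to 0.38 over single arrays left out. Gata2 161820_f_at was 0.031 after quantile normalization, 0.23 without BPL replicates 1 and 2 together, 0.50 with the covariate, 0.051 without BPL replicate 2 and 0.12 without BPH replicate 2. Relative to the 8 chromaffin markers that were not called, the differences were -0.20 and -0.46 for Hand1, -0.19 for Gata2 102789_at, 0.040 for Gata3, 0.91 for Phox2a and -0.77 for Isl1. Relative to all 15 with the higher pseudocount, Phox2a was 0.059. Chromaffin markers called numbered 7, and 4 with the replicate block. The cause of these shifts was not tested. The dim signals of Phox2a, Isl1 and Hand2 limit what their levels show.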

Other observations

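Besides Phox2a, 6 probe sets below the filter in the lists of lineage factors, partners and upstream signals had strains that did not overlap, of Tfap2a, Bmp2, Insm1, Id4, Grem1 and Gdnf, and these did not pass limma without a filter. Tfap2a, a neural crest transcription factor, read 994, 702 and 684 in BPL and 355, 383 and 382 in BPH on probe set 92923_g_at, a log2 difference of -0.78 (adjusted p = 0.11). Its other probe set, at 0.30 (adjusted p = 0.79), overlapped. Bmp2, a ligand that induces the lineage, read 335, 287 and 279 in BPL and 90.6, 104 and 81.8 in BPH on probe set 102559_at, a difference of -0.77 (limma adjusted p = 0.069), while its other probe sets, at 0.11 and -0.41, overlapped. Insm1, a zinc finger factor of neuroendocrine cells, read 364 to 459 in BPL and 468 to 486 in BPH, a difference of 0.11 (limma adjusted p = 0.79). Strains without overlap were common: across all 12422 probe sets, 7.91% had all BPH arrays below all BPL arrays and 13.4% had them above. The lack of overlap therefore does not by itself set the 6 probe sets apart. These probe sets were chosen after their values were seen.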
